A study of Mus musculus with 12 samples.

Results

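The 10 genes described here carry out or control bile acid synthesis and uptake in hepatocytes: Cyp7a1, Cyp8b1, Cyp27a1, Cyp7b1, Hsd3b7, Akr1d1, Amacr, Nr1h4, Nr0b2 and Slc10a1. They were chosen by symbol, out of 19937 genes that have a probe set with a symbol of their own in the platform annotation, and each was read by 1 of the 28213 probe sets in the table (Affymetrix Mouse Gene 1.0 ST). A probe set pools the probes that cover the exons of a transcript cluster. Expression was measured in 12 liver arrays of C57BL/6 mice, 3 in each of 4 groups, taken 6 h after a subcutaneous dose. The first group received saline, the second 55 nmol/kg Albulin, the third 55 nmol/kg Insulin-Apo and the fourth 55 nmol/kg insulin glargine. Albulin is insulin fused to albumin and Insulin-Apo carries insulin, as a single chain, on apolipoprotein A-I, both produced in Escherichia coli, and insulin glargine is a long-acting insulin analogue. No group carried a transgene or a deletion. The labels give an age of 6 weeks. The array experiment of the methods holds saline, Albulin and Insulin-Apo, and the insulin glargine arrays are known here from their labels. Whether they share an experiment or batch with the others is not given, so a batch effect could not be told apart from the treatment. The study describes livers taken from mice given saline, Albulin or Insulin-Apo, without saying whether 1 array stands for 1 mouse. A p value therefore measures the spread between arrays, which may be technical in part.

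Bile acids are made from cholesterol in the hepatocyte. In the classical pathway CYP7A1, the rate-limiting enzyme, hydroxylates the sterol ring, HSD3B7 and AKR1D1 modify the ring, and CYP8B1 adds the hydroxyl that separates cholic acid from the other primary acids. In the alternative pathway CYP27A1 oxidizes the side chain first and CYP7B1 then hydroxylates the ring. For both pathways AMACR acts on the side chain in peroxisomes. The bile acid receptor FXR, the product of Nr1h4, induces the repressor SHP, the product of Nr0b2, and SHP limits transcription of Cyp7a1 and Cyp8b1 together with the nuclear receptors that bind their promoters, among them LRH-1 (Nr5a2). Slc10a1 encodes NTCP, the sodium-dependent transporter that returns bile acids from the blood to the hepatocyte.

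RefSeq promoter windows of the GRCm38.p6 assembly, the 250 bases before the transcription start, were available for 7 of the 10 genes, and Slc10a1 had a window for each of its 2 starts. Cyp7a1, Cyp7b1 and Amacr had none. The windows of Akr1d1 (chr6:37529923-37530172, plus strand), Nr1h4 (chr10:89506659-89506908, minus strand) and Hsd3b7 (chr7:127800359-127800608, plus strand) are shown because these genes passed the test in a comparison with saline. Those of Cyp8b1 (chr9:121916306-121916555, minus strand) and Nr0b2 (chr4:133553126-133553375, plus strand) are shown because they hold the LRH-1 letters, the element through which LRH-1 and SHP are known to act. Each is written 5′ to 3′ on the strand of the gene and ends at the base before the start, and capitals mark every match, on either strand, to 1 of the 6 motifs searched.
Cyp8b1 promoter: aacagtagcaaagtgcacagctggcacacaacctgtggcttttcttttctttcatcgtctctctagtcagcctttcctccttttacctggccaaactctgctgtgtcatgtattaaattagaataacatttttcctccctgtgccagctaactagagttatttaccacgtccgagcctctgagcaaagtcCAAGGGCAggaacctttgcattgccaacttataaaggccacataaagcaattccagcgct
Nr0b2 promoter: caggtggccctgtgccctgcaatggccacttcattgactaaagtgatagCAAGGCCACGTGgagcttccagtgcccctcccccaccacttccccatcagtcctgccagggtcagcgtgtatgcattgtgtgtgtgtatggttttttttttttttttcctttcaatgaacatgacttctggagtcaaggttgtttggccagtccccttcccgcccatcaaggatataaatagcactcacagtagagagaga
Akr1d1 promoter: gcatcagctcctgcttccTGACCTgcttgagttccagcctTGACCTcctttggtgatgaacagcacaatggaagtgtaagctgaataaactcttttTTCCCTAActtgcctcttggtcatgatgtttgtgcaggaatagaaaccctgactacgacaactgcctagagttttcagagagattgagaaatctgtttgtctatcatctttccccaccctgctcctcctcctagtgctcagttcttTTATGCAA
Nr1h4 promoter: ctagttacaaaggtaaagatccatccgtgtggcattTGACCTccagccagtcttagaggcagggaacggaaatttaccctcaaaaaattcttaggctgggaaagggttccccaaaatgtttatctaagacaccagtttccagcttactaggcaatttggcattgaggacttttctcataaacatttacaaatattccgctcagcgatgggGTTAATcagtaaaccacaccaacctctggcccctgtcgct
Hsd3b7 promoter: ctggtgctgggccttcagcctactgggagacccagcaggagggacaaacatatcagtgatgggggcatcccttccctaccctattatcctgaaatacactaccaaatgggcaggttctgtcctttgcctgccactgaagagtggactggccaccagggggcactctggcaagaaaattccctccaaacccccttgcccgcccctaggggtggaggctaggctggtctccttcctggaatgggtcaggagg

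The LRH-1 letters CAAGGNCA stood 60 to 53 bases before the start of Cyp8b1 and 201 to 194 bases before that of Nr0b2, where they overlapped an E-box (CACGTG). These letters were found in 5.53% of all 32851 windows of this length, and the E-box in 6.02%. The nuclear receptor hexamer AGGTCA occurred at 2 places in Akr1d1, at 1 in Nr1h4 and at 1 in the window of the second start of Slc10a1, against 14% of all windows. The letters TTANGNAA, a loose pattern for the D-box, the element of the clock factors DBP, TEF and NFIL3, occurred at 2 places in Akr1d1. They occurred at 1 each in Cyp27a1 and Slc10a1, against 10.3% of windows. The HNF1 letters GTTAAT were found in Nr1h4, against 6.43%. The forkhead letters TGTTTAC, present in 3.17% of windows, were in none of the 8, and the Hsd3b7 window held none of the 6 motifs. A match is a description of these letters.

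The array medians lay between 7.70 and 7.77 on the log2 scale. Arrays correlated with the others of their group at a mean r of 0.990 (insulin glargine replicate 3) to 0.997, and insulin glargine was the loosest group (up to 0.993). Of 9 hepatocyte markers, among them Alb, Ttr and Cps1, 8 were measured and their mean level was 14.22 to 14.34 in all 12 arrays. The mean of 6 of 7 cholangiocyte markers was 6.95 to 7.20. In whole liver, fewer cells of a type and less RNA per cell cannot be told apart. All values below are log2 expression values, and since probe sets differ in binding, levels are compared between arrays and not between genes. Precision is limited by the 3 arrays in each group.

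In the livers of mice given the fusion proteins, Cyp7a1 had the largest difference from saline of the 10 genes, and after insulin glargine Cyp8b1 did. A gene was called when limma's B, the log odds that it is differentially expressed, was over 0. After Albulin 0 of the 10 genes were called in limma, against 2.41% of the 25989 probe sets tested. A p under 0.05 before adjustment was found for 4 of them, all lower, against 18.1% of probe sets, and 1 had a Benjamini-Hochberg adjusted p under 0.05, against 4.69%. After Insulin-Apo 2 genes, Akr1d1 and Nr1h4, were called, both lower, against 2.14% of probe sets called and 0.804% called lower. A p under 0.05 before adjustment was found for 8, of which 7 were lower, against 17.4%, and an adjusted p under 0.05 for 3, against 3.73%. After insulin glargine Hsd3b7 and Amacr were called, both lower, against 4.84% called and 2.60% called lower among 26027 probe sets. Here 7 genes, all lower, had a p under 0.05 before adjustment, against 22.5%, and 5 an adjusted p under 0.05, against 10.9%.

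The differences from saline were below zero for 9 of 10 genes after Albulin, 9 of 10 after Insulin-Apo and 8 of 10 after insulin glargine. Their medians were -0.24, -0.39 and -0.46 on the log2 scale, while the medians of all probe sets were 0.00, -0.02 and 0.00. All 3 treated arrays lay below all 3 saline arrays for 5 genes after Albulin, 7 after Insulin-Apo and 8 after insulin glargine, against 11.7%, 12.7% and 13.1% of the probe sets tested. The 3 comparisons share the same saline arrays. A moderated F test for any difference among the 4 treatments had an adjusted p under 0.05 for 7 genes, all but Cyp27a1 (0.233), Nr0b2 (0.358) and Slc10a1 (0.143), against 13.3% of probe sets. Without saline replicate 1, or without saline replicate 2, this count was 3, namely Cyp7a1, Hsd3b7 and Amacr.

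**Figure D1:**
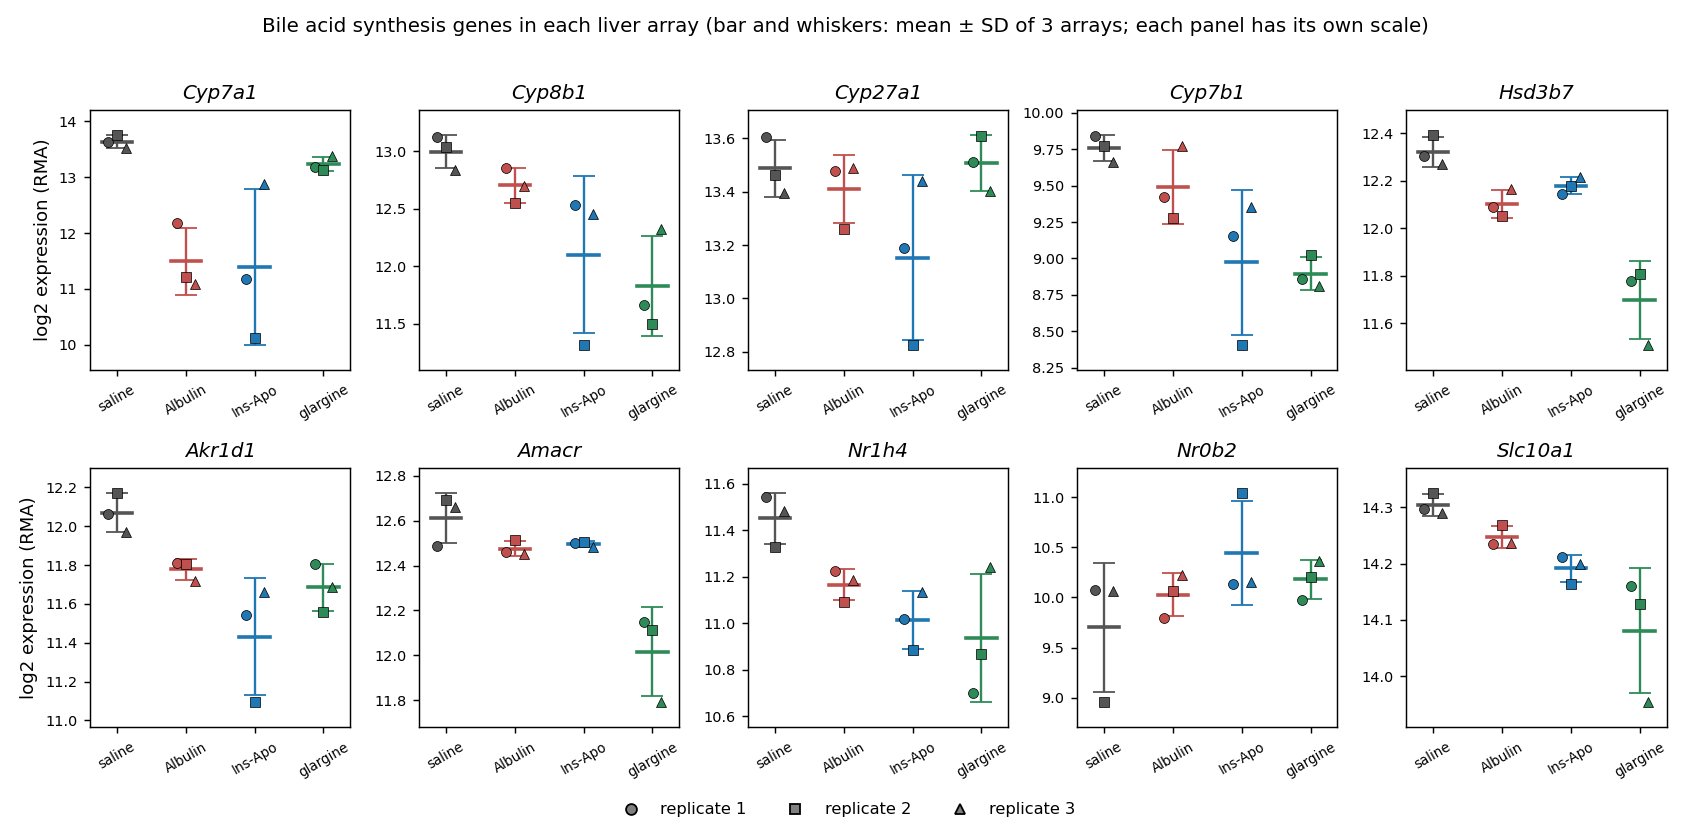
The log2 expression of each of the 10 genes in every array, by treatment, with symbols for the replicate number and a bar with whiskers for the mean ± SD of 3 arrays. Each panel has its own scale. The Albulin arrays of Cyp7a1 lie at 11.09 to 12.19, below the saline arrays at 13.52 to 13.75, and Insulin-Apo replicate 2 is the lowest array of Cyp7a1, Cyp8b1, Cyp27a1, Cyp7b1 and Akr1d1.

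Cyp7a1 (probe set 10511375) was measured at 13.63, 13.75 and 13.52 in saline replicates 1 to 3 and at 12.19, 11.21 and 11.09 in the Albulin arrays. In the Insulin-Apo arrays it was 11.18, 10.12 and 12.88, and after insulin glargine 13.18, 13.13 and 13.37. Every array of the fusion proteins was below every saline and every insulin glargine array, and Insulin-Apo replicate 3 lay nearest to them. The difference from saline was -2.14 ± 0.53 (SE) after Albulin, 4.40-fold lower, with a limma adjusted p of 0.0467, and -2.24 ± 0.53 after Insulin-Apo, 4.73-fold lower, with an adjusted p of 0.0442. Neither was called, since the B statistics were -1.36 and -0.99. The spread within the groups was 0.60 (SD, n = 3) after Albulin and 1.39 after Insulin-Apo, against 0.12 in saline. After insulin glargine the difference was -0.41 ± 0.50, with a 95% interval of -1.49 to 0.68 and an adjusted p of 0.747, although its 3 arrays lay below those of saline. This SE is pooled over all 4 groups, and the SD within the insulin glargine group was 0.13. The interval does not show that insulin glargine left Cyp7a1 unchanged. Without Insulin-Apo replicate 3, Cyp7a1 was called after Albulin (adjusted p = 0.00402) and after Insulin-Apo (-2.98, adjusted p = 0.00138). Without Insulin-Apo replicate 2 it was called after Albulin (adjusted p = 0.0105) and not after Insulin-Apo (-1.61, adjusted p = 0.0940). Over the 21 alternatives the adjusted p ran from 0.00133 to 0.148 after Albulin and from 0.00138 to 0.147 after Insulin-Apo. Over the 23 alternatives for insulin glargine it ran from 0.0523 to 0.870, and Cyp7a1 was called in 0 of them.

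Cyp8b1 (10597875) showed another order of the groups. It was 13.12, 13.03 and 12.84 in saline, 12.86, 12.55 and 12.70 after Albulin, 12.53, 11.32 and 12.46 after Insulin-Apo and 11.67, 11.50 and 12.32 after insulin glargine. The Albulin arrays overlapped those of saline, and the arrays of the other insulins were all lower than saline. The difference was -0.29 ± 0.25 (SE) after Albulin (adjusted p = 0.626), -0.90 ± 0.25 after Insulin-Apo (adjusted p = 0.0829) and -1.17 ± 0.28 after insulin glargine, 2.25-fold lower (adjusted p = 0.0169), all by limma and none called. Without Insulin-Apo replicate 2 the Insulin-Apo difference was -0.50 (adjusted p = 0.0443, not called). Without that array the insulin glargine difference was called (adjusted p = 0.00166), as it was without insulin glargine replicate 3 (-1.41, adjusted p = 0.00580).

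Cyp7b1 (10497381), the oxysterol hydroxylase of the alternative pathway, followed the order of Cyp8b1. It was 9.84, 9.77 and 9.66 in saline, 9.42, 9.28 and 9.77 after Albulin, 9.15, 8.41 and 9.35 after Insulin-Apo and 8.86, 9.02 and 8.81 after insulin glargine. Only Albulin overlapped saline. The limma differences were -0.27 ± 0.21 (SE) after Albulin (adjusted p = 0.571), -0.79 ± 0.21 after Insulin-Apo (adjusted p = 0.0619) and -0.86 ± 0.20 after insulin glargine (adjusted p = 0.0136), none called. The last was called without Insulin-Apo replicate 2 (adjusted p = 0.00108) and without Insulin-Apo replicate 3 (adjusted p = 0.00848). The Insulin-Apo difference was -0.50 without its replicate 2, and the Albulin difference ran from -0.41 without Albulin replicate 3 to -0.16 without Albulin replicate 2. Cyp27a1 (10347481), the first enzyme of that pathway, overlapped saline in every group: 13.40 to 13.61 in saline, 13.26 to 13.49 after Albulin, 12.83 to 13.44 after Insulin-Apo and 13.40 to 13.61 after insulin glargine. Its differences were -0.08 (95% interval -0.37 to 0.22), -0.33 (-0.63 to -0.04) and 0.02 (-0.27 to 0.31), with adjusted p of 0.845, 0.220 and 0.963. Without Insulin-Apo replicate 2 the second of these was -0.17.

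Hsd3b7 (10557782), the steroid dehydrogenase that acts after CYP7A1 and CYP7B1, fell after insulin glargine. It was 12.30, 12.39 and 12.27 in saline and 11.78, 11.81 and 11.51 after insulin glargine, with 12.09, 12.05 and 12.17 after Albulin and 12.15, 12.18 and 12.22 after Insulin-Apo. The insulin glargine arrays lay below all other arrays. The difference from saline was -0.62 ± 0.08 (SE), 1.54-fold lower, with a limma adjusted p of 0.000534, and it was called in 23 of 23 alternatives. After Albulin it was -0.22 ± 0.06 (adjusted p = 0.0791) and after Insulin-Apo -0.14 ± 0.06 (adjusted p = 0.270), not called.

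Amacr (10423090), the racemase that prepares the bile acid side chain for peroxisomal shortening, fell after insulin glargine as well. Its values were 12.48, 12.69 and 12.66 in saline, 12.46, 12.51 and 12.45 after Albulin, 12.50, 12.51 and 12.48 after Insulin-Apo and 12.15, 12.11 and 11.79 after insulin glargine. Insulin glargine replicate 3 was the lowest array of both Amacr and Hsd3b7, and all 3 insulin glargine arrays were below the rest. The difference from saline was -0.60 ± 0.09 (SE), 1.51-fold lower, with a limma adjusted p of 0.00145, and it was called in 22 of 23 alternatives, all but the fit of the 2 groups alone. The Albulin and Insulin-Apo arrays overlapped saline, with differences of -0.14 (95% interval -0.29 to 0.01) and -0.12 (-0.27 to 0.03). Without insulin glargine replicate 3 the differences of Hsd3b7 and Amacr from saline were -0.53 and -0.48, and both were called.

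Akr1d1 (10537306), the reductase that fixes the bend between the A and B rings, fell after Insulin-Apo. It was 12.06, 12.17 and 11.97 in saline, 11.81, 11.81 and 11.72 after Albulin, 11.54, 11.09 and 11.66 after Insulin-Apo and 11.81, 11.56 and 11.69 after insulin glargine. All 9 treated arrays were below all saline arrays. The difference was -0.64 ± 0.12 (SE) after Insulin-Apo, 1.56-fold lower (limma adjusted p = 0.0201, called). It was -0.29 ± 0.12 after Albulin (adjusted p = 0.243) and -0.38 ± 0.12 after insulin glargine (adjusted p = 0.0713), not called. The call stood in 14 of 21 alternatives. It was lost without each saline array in turn, with adjusted p of 0.0621, 0.0920 and 0.0357 without replicates 1, 2 and 3, and without Albulin replicate 1 (0.0355) or 2 (0.0365).

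Nr1h4 (10371784), which encodes FXR, fell after Insulin-Apo too. It was 11.54, 11.33 and 11.48 in saline, 11.22, 11.09 and 11.18 after Albulin, 11.02, 10.89 and 11.14 after Insulin-Apo and 10.70, 10.87 and 11.24 after insulin glargine. Again all 9 treated arrays were below the saline arrays. The difference from saline was -0.44 ± 0.08 (SE) after Insulin-Apo (limma adjusted p = 0.0178, called), -0.28 ± 0.08 after Albulin (adjusted p = 0.0845) and -0.51 ± 0.12 after insulin glargine (adjusted p = 0.0159), where the arrays spread more widely and B was -0.88. The call after Insulin-Apo stood in 13 of 21 alternatives. It was lost without saline replicate 1 (adjusted p = 0.0705) or 3 (0.0501) and without Insulin-Apo replicate 1 (0.0541) or 2 (0.0620). The insulin glargine difference was called without insulin glargine replicate 3 (-0.67, adjusted p = 0.000903).

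Nr0b2 (10508887), which encodes SHP, was the exception in sign. It was 10.08, 8.96 and 10.07 in saline, 9.80, 10.06 and 10.22 after Albulin, 10.13, 11.04 and 10.15 after Insulin-Apo and 9.97, 10.20 and 10.37 after insulin glargine. Saline replicate 2 was the lowest array by far and Insulin-Apo replicate 2 the highest. The limma differences from saline were 0.33 ± 0.30 (SE) after Albulin, 0.74 ± 0.30 after Insulin-Apo and 0.48 ± 0.29 after insulin glargine, with adjusted p of 0.659, 0.233 and 0.398, and none was called. Without saline replicate 2 they were -0.05, 0.37 and 0.11, so that the sign after Albulin and most of the size after insulin glargine rested on that array. Without Insulin-Apo replicate 2 the Insulin-Apo difference was 0.44.

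Slc10a1 (10401289), the uptake transporter, had the narrowest spread. It was 14.30, 14.33 and 14.29 in saline, 14.23, 14.27 and 14.24 after Albulin, 14.21, 14.16 and 14.20 after Insulin-Apo and 14.16, 14.13 and 13.95 after insulin glargine. The groups did not overlap with saline, and the differences were small: -0.06 ± 0.06 (SE), -0.11 ± 0.06 and -0.22 ± 0.07, with limma adjusted p of 0.672, 0.331 and 0.0501. None was called.

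**Figure D2:**
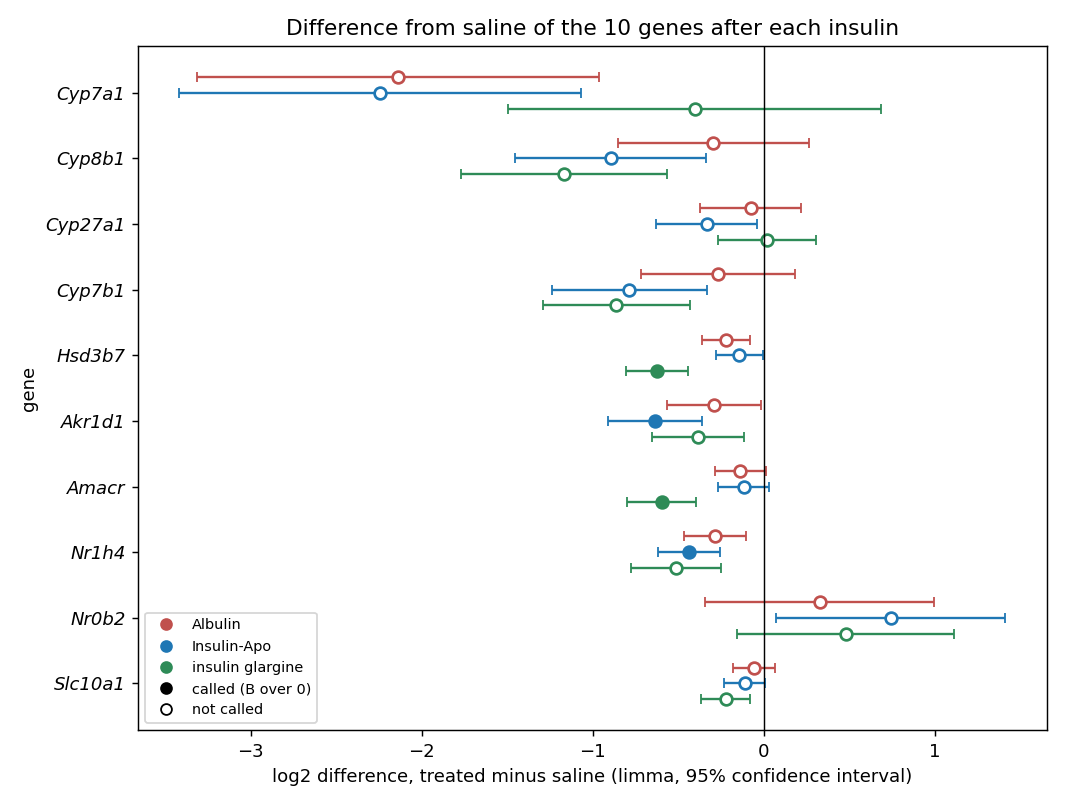
The log2 difference of each gene from saline after Albulin, Insulin-Apo and insulin glargine, as limma estimates with 95% confidence intervals, filled where the gene was called. Hsd3b7 and Amacr are filled after insulin glargine and Akr1d1 and Nr1h4 after Insulin-Apo. The widest intervals are those of Cyp7a1, at -2.14, -2.24 and -0.41.

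Albulin and Insulin-Apo were compared at the same dose and time. None of the 10 genes was called by limma, against 0.639% of probe sets, and 0 had an adjusted p under 0.05, against 0.139%. Before adjustment, p was under 0.05 for 3 genes, against 13.5% of probe sets: Akr1d1, higher after Albulin by 0.35 ± 0.12 (SE, limma adjusted p = 0.266), Cyp7b1, by 0.52 ± 0.21 (0.307), and Cyp8b1, by 0.60 ± 0.25 (0.336). Without Insulin-Apo replicate 2 these differences were 0.18, 0.24 and 0.21. For Cyp7a1 the difference was 0.10 with a 95% interval of -1.07 to 1.28, which does not show that the fusion proteins acted alike. It moved to -0.53 without Insulin-Apo replicate 2 and to 0.85 without Insulin-Apo replicate 3. For Hsd3b7 the interval was -0.22 to 0.06 and for Amacr -0.17 to 0.13.

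Hsd3b7 and Amacr were lower, and Cyp7a1 higher, in the insulin glargine arrays than in those of the fusion proteins. A difference of batch, if there was one, cannot be told apart from the treatment here. Hsd3b7 was lower by 0.40 ± 0.08 (SE) than after Albulin and by 0.48 ± 0.08 than after Insulin-Apo, and Amacr by 0.46 ± 0.09 and 0.48 ± 0.09, all called by limma, with adjusted p of 0.00821, 0.00274, 0.00794 and 0.00565. These were the 2 genes called in each comparison, against 4.35% of probe sets called and 2.35% called lower for Albulin, and 4.84% and 2.88% for Insulin-Apo. An adjusted p under 0.05 was found for 2 genes against Albulin and 3 against Insulin-Apo, where the background was 8.94% and 10.8%. The calls against Albulin had B close to 0 (0.27 and 0.33) and were less firm. That of Hsd3b7 stood in 8 of 23 alternatives and that of Amacr in 10 of 23. Both were lost without any of the Albulin or Insulin-Apo arrays, without saline replicate 2 or 3, or without insulin glargine replicate 3, and the call of Hsd3b7 also without saline replicate 1 or insulin glargine replicate 1, with adjusted p of up to 0.0387 in these fits. Against Insulin-Apo they stood in 20 and 17 of 23. Amacr was lost without Insulin-Apo replicate 1 (adjusted p = 0.0206), 2 (0.0239) or 3 (0.0181), and Hsd3b7 without replicate 3 (0.0123).

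Cyp7a1 was higher after insulin glargine by 1.73 ± 0.50 (SE) than after Albulin (limma adjusted p = 0.0505) and by 1.84 ± 0.50 than after Insulin-Apo (adjusted p = 0.0337), and its arrays did not overlap with either. Neither difference was called. Without Insulin-Apo replicate 2 the second was 1.20. Both were called without Insulin-Apo replicate 3 (1.73 and 2.58, adjusted p of 0.00315 and 0.000685). Cyp8b1 and Cyp7b1 had the opposite sign against Albulin, at -0.87 ± 0.28 (adjusted p = 0.0751) and -0.59 ± 0.20 (adjusted p = 0.0870), and both were called without Insulin-Apo replicate 2 (adjusted p of 0.00883 and 0.00924). Against Insulin-Apo these genes differed by -0.27 (95% interval -0.88 to 0.33) and -0.08 (-0.50 to 0.35), and the values depended on single arrays. With 1 Insulin-Apo array left out the difference of Cyp8b1 ran from -0.66 (without replicate 2) to -0.06 (without replicate 1), and it was -0.11 and -0.52 without insulin glargine replicates 2 and 3. That of Cyp7b1 was 0.02, -0.36 and 0.11 without Insulin-Apo replicates 1, 2 and 3, so its sign changed. These comparisons share the insulin glargine arrays with each other and with the comparison to saline.

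**Figure D3:**
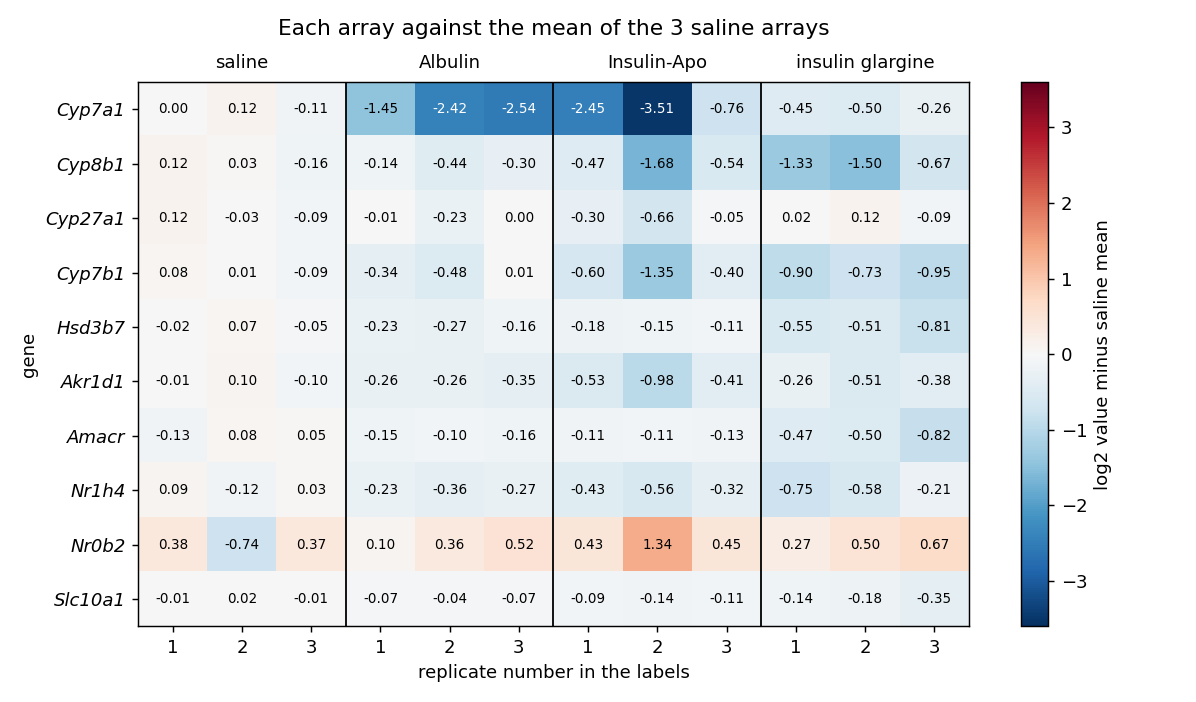
Each cell gives the log2 value of a gene in an array minus the mean of the 3 saline arrays, with blue for lower and red for higher. Insulin-Apo replicate 2 holds the lowest values of Cyp7a1 (-3.51), Cyp8b1 (-1.68), Cyp7b1 (-1.35) and Akr1d1 (-0.98) and the highest of Nr0b2 (1.34), while Hsd3b7 and Amacr are lowest in insulin glargine replicate 3 (-0.81 and -0.82).

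Within groups the genes did not vary alike. Among the Insulin-Apo arrays, replicate 2 was the lowest for 7 of the 10 genes and highest for Nr0b2 and Amacr, and replicate 3 was highest for 6. Over the 12 arrays Hsd3b7 and Amacr had a Pearson r of 0.96, Amacr and Slc10a1 0.92, Hsd3b7 and Slc10a1 0.89, Cyp8b1 and Cyp7b1 0.88 and Cyp8b1 and Nr1h4 0.86. Akr1d1 and Nr0b2 had an r of -0.83. These are descriptions, since the arrays share their treatments. With each group centred on its mean the values were 0.76, 0.87, 0.81, 0.65, 0.69 and -0.77, and without Insulin-Apo replicate 2 they were 0.96, 0.95, 0.92, 0.81, 0.87 and -0.69. These pairs had the largest r in size over the 12 arrays. Some other pairs changed sign on centring, such as Amacr and Nr1h4 (0.38 to -0.88) and Nr1h4 and Slc10a1 (0.42 to -0.81). The highest centred r was that of Cyp27a1 and Cyp7b1, at 0.92, against 0.59 over the arrays.

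Markers of the acute phase response moved with the groups in which Cyp7a1 was low. The mean level of 18 acute phase genes, a list taken because it moved in earlier results of these arrays, was 11.38 to 11.48 in saline, 12.51 to 12.85 after Albulin, 12.53 to 13.15 after Insulin-Apo and 11.43 to 11.61 after insulin glargine. Called by limma against saline were 13 of 18 after Albulin and 10 of 18 after Insulin-Apo, all higher, and 0 after insulin glargine, where 2 had a p under 0.05 before adjustment, against 2.41%, 2.14% and 4.84% of all probe sets called. Since the list was taken for having moved in these arrays, its counts only describe it and are no test. The highest mean level was in Insulin-Apo replicate 2 (13.15), the lowest array of Cyp7a1. Insulin-Apo replicate 3 (12.53) was the Insulin-Apo array with the lowest acute phase level and the highest Cyp7a1. The Albulin arrays did not follow this order: replicate 3 had both the lowest acute phase level (12.51) and the lowest Cyp7a1 (11.09), and replicate 1, at an acute phase level of 12.80, had the highest Cyp7a1 (12.19). The mean of 7 neutrophil markers was 6.81 to 6.97 in saline, 7.34 to 7.39 after Albulin, 7.14 to 7.37 after Insulin-Apo and 6.69 to 6.90 after insulin glargine. Of these, S100a8, S100a9 and Cxcr2 were called higher after Albulin against saline, while 0 were called after Insulin-Apo and 0 after insulin glargine. The part of the acute phase genes and of neutrophils in the difference of Cyp7a1 was not tested.

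Hepatocytes around the portal and central veins differ in bile acid enzymes, and their markers were read beside the members. The mean of 8 pericentral markers was 11.86 to 11.89 in saline, 11.77 to 11.87 after Albulin and 11.64 to 11.96 after Insulin-Apo. After insulin glargine it was 11.61 to 11.75, below all saline arrays. Of these 8 markers, Lgr5 alone was called, lower after insulin glargine. The mean of 5 of 8 periportal markers was 12.74 to 12.96 in saline and 12.30 to 12.83 after insulin glargine. It was 12.52 to 12.71 after Albulin and 12.50 to 12.66 after Insulin-Apo, in both below all saline arrays. Of the periportal markers, 0 were called in any of the 6 comparisons. Of 7 Kupffer cell markers Marco was called higher after Insulin-Apo against saline. The part of these cell types in the differences was not tested.

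Among the other enzymes of bile acid synthesis and conjugation, 14 of 14 were measured, and 2 were called against saline, both lower after insulin glargine, against 4.84% of probe sets called. Akr1c6, a hydroxysteroid dehydrogenase, was 13.19 ± 0.10 (SD, n = 3) in saline and 12.11 ± 0.29 after insulin glargine, a difference of -1.08 ± 0.13 (SE, limma adjusted p = 0.000261). Akr1c14, of the same family, differed by -1.31 ± 0.25 (adjusted p = 0.00538). The values of these neighbouring family members may share probes, which was not tested. After Albulin and Insulin-Apo 0 of 14 were called by limma against saline, and 0 and 3 had a p under 0.05 before adjustment, against 18.1% and 17.4% of probe sets. After insulin glargine 3 did, against 22.5%. The 3 after Insulin-Apo were Acox2 (-0.35 ± 0.08, adjusted p = 0.0311), Slc27a5 (-0.32) and Akr1c14 (-0.50 ± 0.19, adjusted p = 0.182). The Insulin-Apo arrays of each lay below all saline arrays. The number called after Insulin-Apo, 0 in the fit reported, was 1 without Insulin-Apo replicate 1 or 3 (Acox2 and Slc27a5, respectively). The call of Akr1c6 stood in 23 of 23 alternatives, and that of Akr1c14 was lost without any saline array or without insulin glargine replicate 2, which left 1 gene. Both were also lower than after Albulin, by 0.98 and 1.35, although Akr1c14 was not called without Albulin replicate 2 or 3, and Akr1c6 was lower than after Insulin-Apo by 1.03. Akr1c14 differed by -0.81 ± 0.25 between insulin glargine and Insulin-Apo (adjusted p = 0.0611), not called. Acox2, the branched-chain oxidase of the side chain, was higher after insulin glargine than after Insulin-Apo, by 0.43 ± 0.08 (adjusted p = 0.00350), except without insulin glargine replicate 2. The conjugating enzymes Baat and Slc27a5 were not called in any comparison of the fits reported. Against saline Baat differed by 0.06, -0.10 and -0.33 and Slc27a5 by -0.12, -0.32 and -0.19 after Albulin, Insulin-Apo and insulin glargine.

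Of 31 other regulators of bile acid synthesis, 29 were measured. Called against saline were 1 higher and 3 lower after Albulin, 1 higher and 3 lower after Insulin-Apo and 2 higher and 3 lower after insulin glargine, against 2.41%, 2.14% and 4.84% of all probe sets called in either direction. A p under 0.05 before adjustment was found for 15, 13 and 17 of the 29, against 18.1%, 17.4% and 22.5%. Nfil3, a repressor at the D-box, rose after all 3 insulins: it was 8.55 ± 0.20 (SD, n = 3) in saline, 10.28 ± 0.22 after Albulin, 9.96 ± 0.35 after Insulin-Apo and 9.98 ± 0.11 after insulin glargine. Its differences of 1.74, 1.42 and 1.43 were called in every alternative, with limma adjusted p of 0.000488, 0.00229 and 0.000217. Dbp, the activator at the same element, was 11.22 ± 0.23 in saline, 10.25 ± 0.13 after Albulin, 10.09 ± 0.49 after Insulin-Apo and 8.78 ± 0.13 after insulin glargine. It was called lower after Insulin-Apo (-1.13, adjusted p = 0.0133) and insulin glargine (-2.44, adjusted p = 2.29e-05), and its difference after Albulin was -0.97 (adjusted p = 0.0220). Tef, of the same family, was called lower after Insulin-Apo (-0.64) and insulin glargine (-0.69), the latter in 7 of 23 alternatives. After Albulin it was 9.76 to 9.97, below the saline arrays at 10.30 to 10.53, and was not called. Nr1d1, the clock repressor REV-ERB alpha, fell after insulin glargine by 1.63 ± 0.21 (SE, adjusted p = 0.000441) and had differences of 0.27 and 0.20 after the fusion proteins. The hour at which the livers were taken is not given in the sources used here, and the part of the clock genes in the differences of the 10 genes was not tested.

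Foxo1, a transcription factor that insulin signalling holds out of the nucleus, was 10.38 ± 0.19 (SD, n = 3) in saline and 11.33 ± 0.08 after insulin glargine, a difference of 0.95 ± 0.20 (SE, limma adjusted p = 0.00895, called in 12 of 23 alternatives). It was also higher after insulin glargine than after Albulin (1.11) and Insulin-Apo (1.13). Foxo3 was called lower after Albulin (-0.45) and Insulin-Apo (-0.41). Klb, the co-receptor through which intestinal FGF15 acts on the liver, fell by 0.39 after Albulin and was called in 11 of 21 alternatives. It differed from saline by -0.35 (adjusted p = 0.0299) after Insulin-Apo and by -0.24 (adjusted p = 0.194) after insulin glargine, not called. Nr1i3, the xenobiotic receptor CAR, fell by 0.76 after Albulin and was called in 12 of 21. Its level was about as low after the other insulins, with differences of -0.73 (adjusted p = 0.0263) and -0.78 (adjusted p = 0.0202) that were not called. Fgfr4, the FGF15 receptor, was higher after insulin glargine than after Albulin (0.55 ± 0.10) or Insulin-Apo (0.47 ± 0.10, in 8 of 23 alternatives), and Zfp36l1, an RNA-binding protein that promotes Cyp7a1 mRNA decay, was lower than after Albulin (-0.87 ± 0.17). The LRH-1 gene Nr5a2 was not called: it differed from saline by -0.16, -0.07 and -0.36. Many of these calls were lost when an array was left out. After Albulin, Klb was lost without Albulin replicate 1 or 2, Insulin-Apo replicate 1 or 2 or any saline array, and Nr1i3 without any Albulin or saline array or Insulin-Apo replicate 1, and the count was 2, Foxo3 and Nfil3, without Albulin replicate 1 or any saline array. After Insulin-Apo, Foxo3 was lost without Insulin-Apo replicate 2 or 3 or saline replicate 1 or 2, Dbp without saline replicate 2 or 3 and Tef without Insulin-Apo replicate 1 or 2 or saline replicate 2 or 3. The count there was 2 without Insulin-Apo replicate 2 or saline replicate 3 and 1 without saline replicate 2. After insulin glargine, Foxo1 was lost without Albulin replicate 1 or 2, Insulin-Apo replicate 3 or any saline or insulin glargine array, and Tef without any array but Insulin-Apo replicate 3 or insulin glargine replicate 2. The count was 3, Dbp, Nfil3 and Nr1d1, without Albulin replicate 1 or 2, saline replicate 1 or 3 or insulin glargine replicate 1. Against Albulin 5 were called, and the count was 9 without insulin glargine replicate 3 and 3 without Albulin replicate 1 or 2. Foxo1 was lost there without Albulin replicate 1 or 2 or insulin glargine replicate 1, Fgfr4 without Albulin replicate 2 or insulin glargine replicate 2 and Zfp36l1 without Albulin replicate 1 or 3 or insulin glargine replicate 2. Against Insulin-Apo, Foxo1 was lost without Insulin-Apo replicate 3 or insulin glargine replicate 1.

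Of 15 transporters of bile acids and bile lipids, all measured, 1 was called lower against saline after each insulin, against 2.41%, 2.14% and 4.84% of all probe sets called after Albulin, Insulin-Apo and insulin glargine. Slco1b2, the sinusoidal organic anion transporter, was 12.81 ± 0.08 (SD, n = 3) in saline and 12.38 ± 0.04 after insulin glargine (-0.43 ± 0.07 SE, limma adjusted p = 0.00202), and it was also lower than after Albulin (-0.38) and Insulin-Apo (-0.34, called in 8 of 23 alternatives). Abcc3, the basolateral export pump, fell by 0.63 ± 0.12 after Insulin-Apo (adjusted p = 0.0204), and Slc10a5, a relative of the bile acid carriers, by 0.41 ± 0.08 after Albulin (adjusted p = 0.0181). Slc10a5 differed from saline by -0.27 after Insulin-Apo (adjusted p = 0.101) and by -0.57 ± 0.12 after insulin glargine (adjusted p = 0.0107), a larger difference with wider spread that was not called. Abcc3 differed by -0.24 (adjusted p = 0.344) after Albulin and -0.39 (adjusted p = 0.0549) after insulin glargine. The call of Abcc3 was lost without any Albulin or saline array, that of Slc10a5 without any Albulin array, Insulin-Apo replicate 2 or saline replicate 2 or 3, and that of Slco1b2 against Albulin without Albulin replicate 2 or 3 or insulin glargine replicate 2. Against saline, 2 transporters were called after insulin glargine without Insulin-Apo replicate 2 (with Abcc3) or without insulin glargine replicate 1 or 2 (with Slc10a5), and 2 after Insulin-Apo without its replicate 2. Abcb11, the canalicular bile salt export pump and an FXR target, was 12.29 ± 0.08 in saline and 11.90 ± 0.07 after insulin glargine (-0.39 ± 0.10, adjusted p = 0.0283), not called. Slc51b, another FXR target, had differences of 0.59, 0.58 and 0.61 (adjusted p of 0.0902, 0.103 and 0.0635), and the flippase Atp8b1 of 0.42, 0.42 and 0.11, none called.

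Of 8 other bile acid receptors and detoxifying enzymes, 6 were measured, and Vdr, the vitamin D receptor that also binds lithocholic acid, was the 1 called. It was 6.58 ± 0.03 (SD, n = 3) in saline, 6.54 ± 0.13 after Albulin, 6.48 ± 0.10 after Insulin-Apo and 7.18 ± 0.06 after insulin glargine. All of its values lay below the array medians of 7.70 to 7.77, so its signal was low. The insulin glargine arrays differed from saline by 0.60 ± 0.08 (SE, limma adjusted p = 0.000619), from Albulin by 0.63 and from Insulin-Apo by 0.70, and these calls stood in 23 of 23 alternatives. Cyp2b10, a CAR target, differed from saline by -0.51, -1.27 and 0.54 after Albulin, Insulin-Apo and insulin glargine and was not called. Without Insulin-Apo replicate 3 it was called after Insulin-Apo, and without insulin glargine replicate 1 Sult2a8 was called beside Vdr after insulin glargine.

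**Figure D4:**
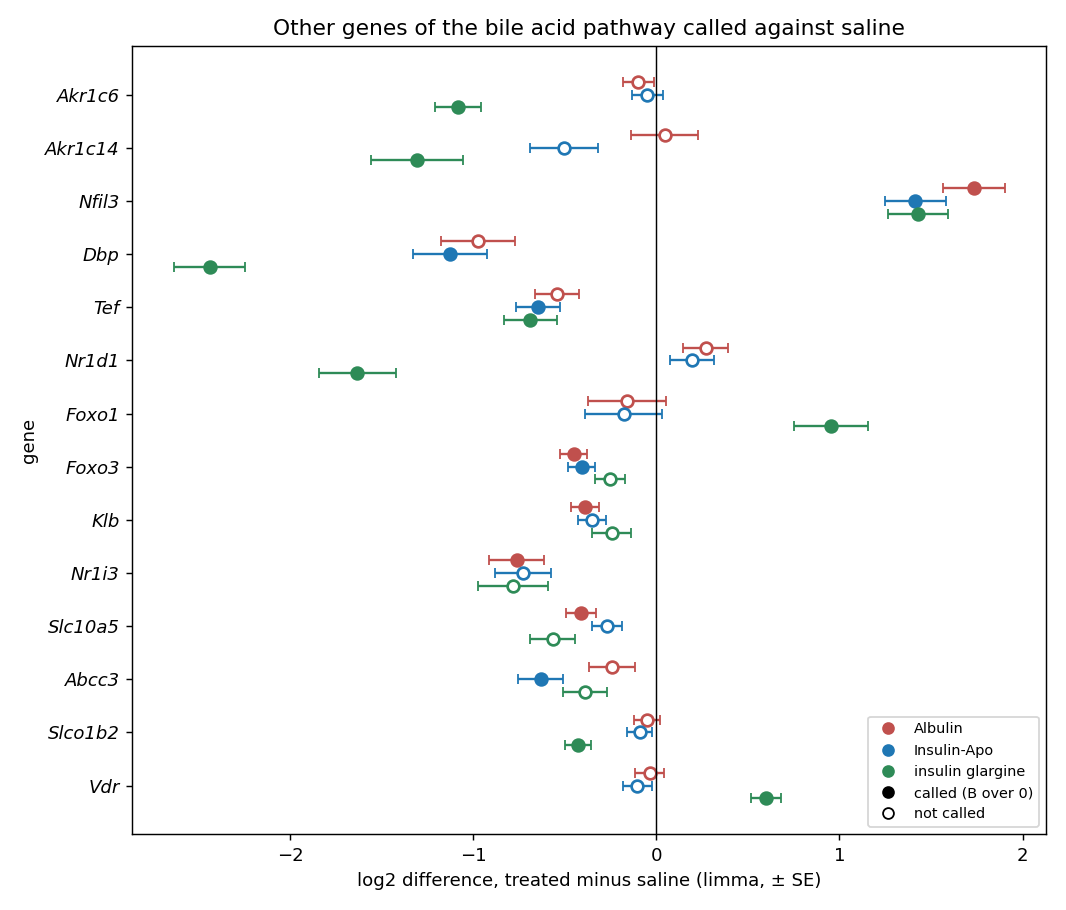
The log2 difference from saline (limma estimate ± SE) of the 14 other genes of bile acid metabolism called in at least 1 comparison with saline, filled where called. Nfil3 is filled to the right of 0 after all 3 insulins, at 1.74, 1.42 and 1.43, and Dbp after insulin glargine lies farthest to the left, at -2.44.

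The probe sets whose values over the 12 arrays were most like those of Cyp7a1, Cyp8b1 and Nr0b2 were sought among 20505 with 1 symbol, as a description. For Cyp7a1 they were Aph1a (Pearson r = 0.96), 9630013D21Rik (0.94), Upp2 (0.94), Afm (0.94) and Map2k6 (0.93). Upp2, uridine phosphorylase 2, was 12.82 ± 0.20 (SD, n = 3) in saline, 11.49 ± 0.14 after Albulin, 10.93 ± 0.88 after Insulin-Apo and 12.68 ± 0.25 after insulin glargine. For Cyp8b1 they were Plg (0.94), Atg7 (0.94), Bcas3 (0.92), Notum (0.91) and Rfx4 (0.91), and for Nr0b2 Gm4841 (0.95), Crat (0.92), Cald1 (0.89), Serpina7 (0.88) and Etnk1 (0.87). Centred on their group means the r values lay between 0.73 and 0.96, and without Insulin-Apo replicate 2 between 0.80 and 0.94. The probe sets were picked for high r over these same arrays, so these values do not test the likeness.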

How the data were processed

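Liver RNA was extracted with the Maxwell 16 LEV simplyRNA kit and hybridized to Affymetrix Mouse Gene 1.0 ST arrays. The authors summarized the probes with RMA, which corrects the background and normalizes between arrays, and deposited log2 values. Its version, the annotation build and whether RMA was run on all arrays at once: not given in the sources used here. Of the 28213 probe sets, 21640 carry 1 symbol, 1321 several and 5252 none. The methods give mice of another age at purchase than the labels.

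Groups came from the sample labels. Probe sets above 5 in 2 or more arrays of any group were kept, which dropped 2224 in the fit without insulin glargine and 2186 in the fit with it. All 10 genes passed. Saline, Albulin and Insulin-Apo were compared in a limma (3.58.1, R 4.3.3) fit of their 9 arrays, and insulin glargine with each of them in a fit of all 12. Calls required B over 0 at a prior proportion of 0.01, and p values were adjusted with the Benjamini-Hochberg method over all probe sets tested.

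The 10 genes and the gene lists were chosen with earlier results of these data known. Named beside the 10 genes are those of the 4 other bile acid lists called in a comparison. Others of the same lists were among the 3 smallest p values of a comparison. Cell type markers called against saline are named, and those called only between insulins are left out. Nr5a2 was chosen after its values were seen. The 5 probe sets most like Cyp7a1, Cyp8b1 and Nr0b2 are named as well. The alternatives changed the filter (none, or a value over 6), the scaling (median centring, or a further quantile normalization), the model (replicate block, intensity trend, array weights), the call (adjusted p under 0.05, also together with a log2 change of 0.58 or more), the averaging of probe sets of a gene and the arrays fitted (the 2 groups alone, all 12, or all but 1). Each of the 10 genes has 1 probe set, so the averaging left its values as they were. The alternatives that changed the call reread the fit reported. Promoter windows came from RefSeq. Plots were made in Python 3.11.15 with matplotlib 3.10.9.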

Additional observations from a re-analysis of the deposited data

How the results depend on the processing

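No called difference of the 10 genes changed sign in any alternative. With each array left out in turn, the number of genes called was 0 to 1 for Albulin against saline, 0 to 3 for Insulin-Apo against saline, 0 to 0 for Albulin against Insulin-Apo, 2 to 4 for insulin glargine against saline, 0 to 2 for insulin glargine against Albulin and 1 to 2 for insulin glargine against Insulin-Apo, and 3 to 7 had a difference by the F test. The count for Insulin-Apo against saline, 2 in the fit reported, was 1 (Akr1d1) with arrays centred on their medians and in a fit of all 12 arrays, and 0 with only the 2 groups compared. For Albulin against saline, 0 as reported, it was 1 (Cyp7a1) with only the 2 groups compared, with an adjusted p under 0.05 and with that and a log2 change of at least 0.58. For insulin glargine against saline, 2 as reported, it was 4 with array weights, 5 with an adjusted p under 0.05 and 4 with the log2 change added. Against Albulin, 2 as reported, it was 0 with median centring, 1 with only the 2 groups compared (Cyp7a1, with Hsd3b7 and Amacr both lost) and 0 with the log2 change. Against Insulin-Apo, 2 as reported, it was 1 (Hsd3b7) with median centring, 0 with only the 2 groups compared and 1 with the log2 change (Cyp7a1, with Hsd3b7 and Amacr both lost). Fits of 2 groups hold fewer arrays. The cause of the other shifts was not tested.

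The labels number the replicates 1 to 3 in each group, but the numbers did not pair the arrays: over 18 pairs of arrays with the same number, the correlation of deviations from the group means was -0.27 to 0.15, over 0.1 in 2 pairs, and 3 of 12 arrays correlated best with their own number. With a replicate block the count was 1 for Insulin-Apo against saline (Nr1h4) and 0 for insulin glargine against Albulin.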
